A study of Arabidopsis thaliana with 9 samples.

Results

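The levels of 9 transcription factors of the abscisic acid response were followed in seedling transcriptomes of wild-type *Arabidopsis thaliana* and 2 mutants: *ABI3*, *ABI4*, *ABI5*, *ABF1*, *ABF2*, *ABF3*, *ABF4*, *ATHB7* and *ATHB12*. The 9 genes were picked by gene identifier from a table that holds values for 25717 genes, and all 9 had values. Col-0 is the wild type, *exg1-1* carries a T-DNA insertion in *EXG1* (spelled EVG1 in the sample labels), and *rlp44-3* is a mutant of *RLP44*, which encodes a receptor-like protein. Both mutants are in the Col-0 background. Each genotype gave 3 libraries of whole seedlings that were untreated, 7 days old, grown on agar at 20 °C in 8 h of light and 16 h of darkness, and frozen intact. The genes were chosen with scaled levels in these same genotypes known, so their differences between genotypes are given as a description and without a test.

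Abscisic acid is the hormone of seed maturation, dormancy and the response to drought. It binds PYR/PYL receptors, which then block clade A PP2C phosphatases, and the SnRK2 kinases released from this inhibition phosphorylate bZIP factors. Those bZIP factors, ABI5 and the ABF proteins, bind abscisic acid response elements (ABREs) whose core is ACGTG. ABI3 is a B3 domain factor and ABI4 an AP2 domain factor, both known from seeds and germinating embryos. ATHB7 and ATHB12 are homeodomain leucine zipper factors of class I whose transcripts accumulate under water deficit and abscisic acid.

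The deposited values bear on every number below. Although the table is named as raw counts, none of its values was whole, and each genotype's 3 columns differed by a constant factor to within a relative 9.6e-15. Each gene thus had a single fitted value in a genotype, with no spread between replicates, and no SD, p-value or paired comparison could be obtained. Library sums ranged from 8364383 to 12971468 fitted reads. Levels are given as fitted CPM, that is, fitted reads per 1000000 reads of a library at the Col-0 scale after TMM scaling between genotypes, and ratios as log2 of scaled values with a 95% interval that treats the summed fitted reads as counted reads and covers counting error only. *EXG1* was at 103 fitted CPM in Col-0 against 33.8 in *exg1-1* and 93.6 in *rlp44-3*. *RLP44* was at 3.72, 3.01 and 0.0317 fitted CPM, the last being about 1 read over 3 libraries. The 4 shoot markers summed to between 26862 and 29350 fitted CPM and the 3 root markers to between 2908 and 3269, so both organs of the labelled whole seedling were represented in all genotypes. In such bulk samples, fewer cells of a type and less RNA per cell cannot be told apart.

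The upstream sequences are shown first, since the ABRE core is the element that the bZIP members bind and since *ABI5* and *ATHB7* carried the clearest differences between genotypes. Windows are the 250 bases before the annotated gene start in RefSeq TAIR10.1, read 5′ to 3′ on the strand of the gene, and none of the 9 windows overlapped another gene. ACGTG and its reverse complement CACGT are in capitals, and in CACGTG the 2 overlap. *ABI5* (AT2G36270, chromosome 2, minus strand) is the member with the most of these letters, and *ABF4* (AT3G19290, chromosome 3, plus strand) is shown beside it because it was the only member that was higher in *exg1-1* than in Col-0.
ABI5: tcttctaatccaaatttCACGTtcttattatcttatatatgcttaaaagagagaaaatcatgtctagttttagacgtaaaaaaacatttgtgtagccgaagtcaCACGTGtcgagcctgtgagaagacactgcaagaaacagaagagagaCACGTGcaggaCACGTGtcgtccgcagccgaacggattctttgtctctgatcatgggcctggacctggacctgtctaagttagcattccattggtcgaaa
ABF4: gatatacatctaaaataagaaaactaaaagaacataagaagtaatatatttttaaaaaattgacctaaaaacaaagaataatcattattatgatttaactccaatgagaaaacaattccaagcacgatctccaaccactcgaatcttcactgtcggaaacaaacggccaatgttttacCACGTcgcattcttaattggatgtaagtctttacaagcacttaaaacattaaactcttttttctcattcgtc

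The *ABI5* window held 7 matches to ACGTG on either strand, 6 of them as 3 copies of CACGTG whose first CACGT matches begin 146, 100 and 89 bases before the start. At least 7 matches were found in 14 of 27444 protein-coding genes (0.0510%), and at least 3 copies of CACGTG in 27 (0.0984%). *ABF1* held 2 matches, *ABF3* and *ABF4* 1 each, and *ABI3*, *ABI4*, *ABF2*, *ATHB7* and *ATHB12* none. Across all genes 22.9% of windows held at least 1. In windows of 1000 bases *ABI5* held 9 matches, *ABF3* and *ATHB12* 4 each, *ABF1* 2, and *ABF4* and *ATHB7* 1 each, where 54.4% of all genes held at least 1. These letters are a description of the sequence and not evidence of a bound site. Whether the matches relate to the differences between genotypes was not tested.

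*ATHB7* (AT2G46680, chromosome 2, minus strand) and *ATHB12* (AT3G61890, chromosome 3, minus strand) encode closely related proteins, and their windows are shown together because they shared a run of 22 bases, given in capitals.
ATHB7: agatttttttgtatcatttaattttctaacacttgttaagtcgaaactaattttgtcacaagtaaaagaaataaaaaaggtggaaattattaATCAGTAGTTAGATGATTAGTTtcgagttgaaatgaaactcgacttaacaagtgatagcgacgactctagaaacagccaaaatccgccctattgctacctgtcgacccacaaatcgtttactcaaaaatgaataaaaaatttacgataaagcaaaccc
ATHB12: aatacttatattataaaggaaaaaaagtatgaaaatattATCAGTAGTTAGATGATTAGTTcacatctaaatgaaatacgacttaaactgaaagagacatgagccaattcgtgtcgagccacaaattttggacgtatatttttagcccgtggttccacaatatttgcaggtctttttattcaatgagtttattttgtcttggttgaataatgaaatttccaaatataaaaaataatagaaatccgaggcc

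The run began 158 bases before the start of *ATHB7* and 211 bases before that of *ATHB12*, and on either strand it occurred in the windows of these 2 genes alone among 27444. The next longest run shared by any 2 members was 13 bases, between *ABI3* and *ABF2*, and that run was in 35 windows.

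**Figure D1:**
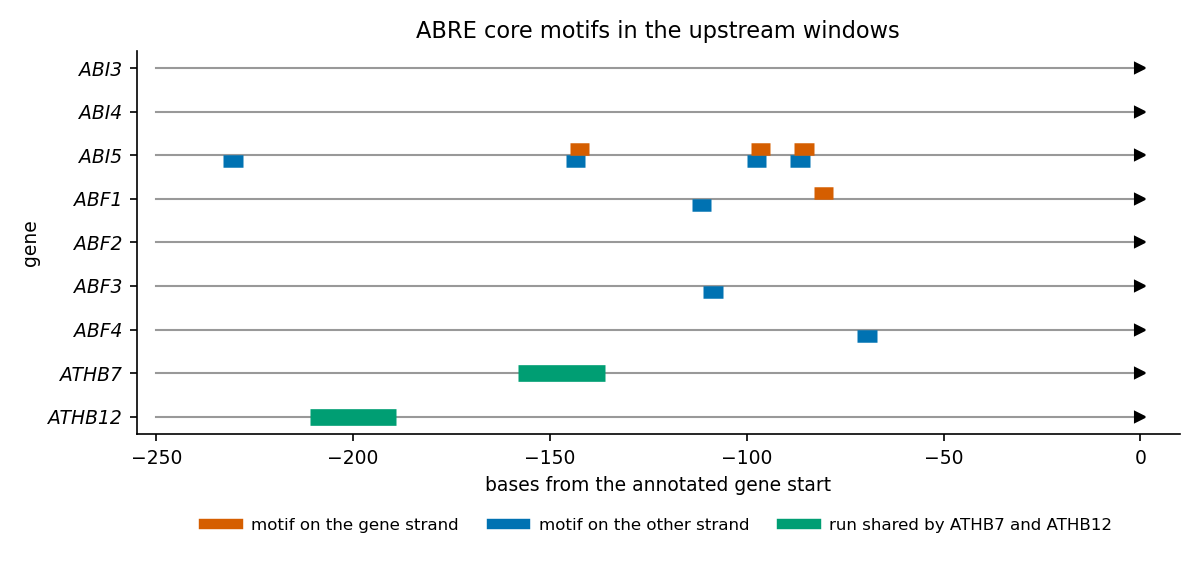
Positions of the ABRE core in the 250 bases before the start of each of the 9 genes, in bases from the annotated gene start (horizontal axis), with matches on the gene strand above the line, matches on the other strand below it, and the run shared by *ATHB7* and *ATHB12* in green. The 7 matches of *ABI5* lie in a single match and 3 overlapping pairs, and 5 genes have none.

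Per kilobase of exon, the members fell into a group between 8.32 and 24.1 fitted CPM per kb in Col-0 and a group between 0.882 and 2.46. In Col-0 *ABF3* was the highest, at 24.1 fitted CPM per kb, followed by *ATHB7* at 19.1, *ABF1* at 15.4, *ABF4* at 12.2, *ATHB12* at 11.8 and *ABF2* at 8.32. *ABI5* at 2.46, *ABI3* at 1.93 and *ABI4* at 0.882 made up the low group. *ABF4* and *ATHB12*, and *ABI5* and *ABI3*, were neighbours whose counting intervals overlapped in Col-0. *ABF3* stayed at the top in both mutants, at 21.5 fitted CPM per kb in *exg1-1* and 21.7 in *rlp44-3*. *ATHB7* held rank 2 in Col-0 and rank 4 in each mutant, at 11.5 and 11.2 fitted CPM per kb, where in *rlp44-3* its interval overlapped that of *ATHB12*. The order of *ABI5* and *ABI3* was reversed in *rlp44-3*, at 0.921 and 1.19, with overlapping intervals.

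**Figure D2:**
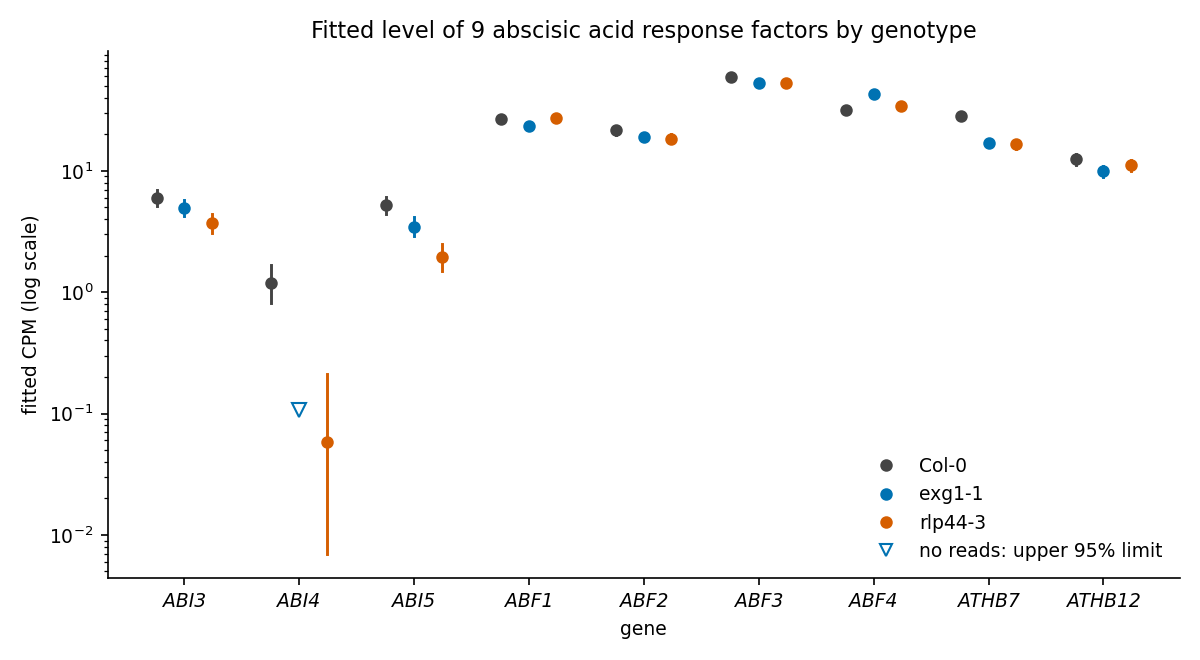
Fitted CPM (log axis) of the 9 genes in Col-0, *exg1-1* and *rlp44-3*, with points at the authors' fitted value on the scale used here and bars for the 95% counting interval. The triangle marks the upper 95% limit of 0.106 fitted CPM for *ABI4* in *exg1-1*, which had no reads. *ATHB7* is lower in both mutants, and *ABI5* is lowest in *rlp44-3*.

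*ABI5*, the bZIP factor that holds back growth of the germinating seedling under abscisic acid, was lower in both mutants and lowest in *rlp44-3*. Its fitted values were 48.8, 43.4 and 49.8 reads in the Col-0 libraries, 34.9, 42.3 and 43.5 in *exg1-1* and 21.8, 21.6 and 22.6 in *rlp44-3*. These differ within a genotype by the library factor alone. After scaling they corresponded to 5.19 fitted CPM in Col-0 against 3.47 in *exg1-1* and 1.94 in *rlp44-3*. The log2 ratio to Col-0 was -0.58 in *exg1-1* (95% counting interval -0.94 to -0.22) and -1.42 in *rlp44-3* (-1.86 to -0.99), the latter a 2.67-fold lower level (1.98 to 3.63). Among the 5256 retained genes with a Col-0 level within 2-fold of that of *ABI5*, 7.46% had a lower ratio in *exg1-1* and 1.01% in *rlp44-3*.

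*ABI3*, the B3 factor of seed maturation, was at 5.99 fitted CPM in Col-0 against 4.97 in *exg1-1* and 3.68 in *rlp44-3*. Its fitted values were 56.4, 50.1 and 57.5 reads in Col-0, 49.9, 60.6 and 62.2 in *exg1-1* and 41.4, 40.9 and 42.8 in *rlp44-3*. In *rlp44-3* its log2 ratio to Col-0 was -0.70 (-1.05 to -0.36), whereas in *exg1-1* it was -0.27 with an interval that included 0 (-0.59 to 0.05).

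*ABI4*, the AP2 factor that mediates abscisic acid and sugar responses of seedlings, was near the detection limit. Col-0 libraries held 11.1, 9.88 and 11.3 fitted reads. No reads were seen in *exg1-1*, where each library held at most 0.200 fitted reads, a residue of the fit, and about 2 reads in all were seen in *rlp44-3*. With the floor set at 3 reads over a genotype, *ABI4* was at least 13.7-fold lower in *exg1-1* than in Col-0. In *rlp44-3* it was 20.2-fold lower, with a counting interval of 5.14 to 176. With the *rlp44-3* sum set to the same floor the log2 ratio was -3.74, beside -3.77 at the floor in *exg1-1*. No order of the mutants can be read from these values. *ABI4* passed the filter on low values through Col-0 alone, so that it had to be lower in the mutants, and the other 8 members had at least 10 fitted reads in every library. Both mutants were at or under the floor and give no ratio to each other.

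The 4 ABF factors, the bZIP activators of abscisic acid responses in vegetative tissue, all lay within 1.5-fold of Col-0 in both mutants. *ABF4* had 300.5, 267 and 307 fitted reads in the Col-0 libraries, 431, 524 and 538 in *exg1-1* and 384, 379.5 and 397 in *rlp44-3*. It was at 31.9 fitted CPM in Col-0 against 42.9 in *exg1-1* and 34.2 in *rlp44-3*. Its log2 ratio to Col-0 was thus 0.43 in *exg1-1* (0.31 to 0.55) and 0.10 in *rlp44-3* (-0.03 to 0.23), and 3.00% of the 6700 retained genes at a like Col-0 level had a higher ratio in *exg1-1*. *ABF3* was at 58.9 fitted CPM in Col-0 against 52.6 in *exg1-1* and 53.1 in *rlp44-3*, with log2 ratios of -0.16 and -0.15. *ABF2*, also called AREB1, was at 21.5, 19.0 and 18.4 fitted CPM, with ratios of -0.18 and -0.22. *ABF1* was at 26.5, 23.5 and 27.0 fitted CPM, with ratios of -0.17 and 0.03.

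Values of 3 of these genes are uncertain, because the sources used here do not say whether reads were counted by strand and *ABF1*, *ABF3* and *ABF4* each overlap at least 1 gene on the other strand. For *ABF4*, the coding gene it overlaps (AT3G19300) was at 5.32 fitted CPM in Col-0 against 5.08 in *exg1-1* and 4.86 in *rlp44-3*, with log2 ratios of -0.07 and -0.13. For *ABF1*, AT1G49730 had ratios of 0.30 and -0.01, and for *ABF3*, AT4G34020 had ratios of 0.25 and 0.31. In Col-0 AT1G49730 was at 48.4 fitted CPM and AT4G34020 at 21.9. In *exg1-1* the overlapping coding gene of each of the 3 pairs stood on the other side of Col-0 from the member, and nothing is read from this. The paper names a directional library kit but no strand setting for counting. Whether reads of the overlapping genes entered the values of the members was not tested.

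*ATHB7* was lower in both mutants and by nearly the same amount. Its fitted values were 266, 236 and 271 reads in the Col-0 libraries, 171, 207 and 213 in *exg1-1* and 185, 183 and 191 in *rlp44-3*. It was at 28.2 fitted CPM in Col-0 against 17.0 in *exg1-1* and 16.5 in *rlp44-3*. The log2 ratio to Col-0 was -0.73 in *exg1-1* (-0.89 to -0.57) and -0.77 in *rlp44-3* (-0.93 to -0.62), or 1.66-fold and 1.71-fold lower. Of 7078 retained genes at a like Col-0 level, 0.890% had a lower ratio in *exg1-1* and 0.353% in *rlp44-3*. Its close relative *ATHB12* was at 12.4, 9.91 and 11.1 fitted CPM, with log2 ratios of -0.32 in *exg1-1* (-0.54 to -0.10) and -0.16 in *rlp44-3* (-0.38 to 0.05), the latter including 0.

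**Figure D3:**
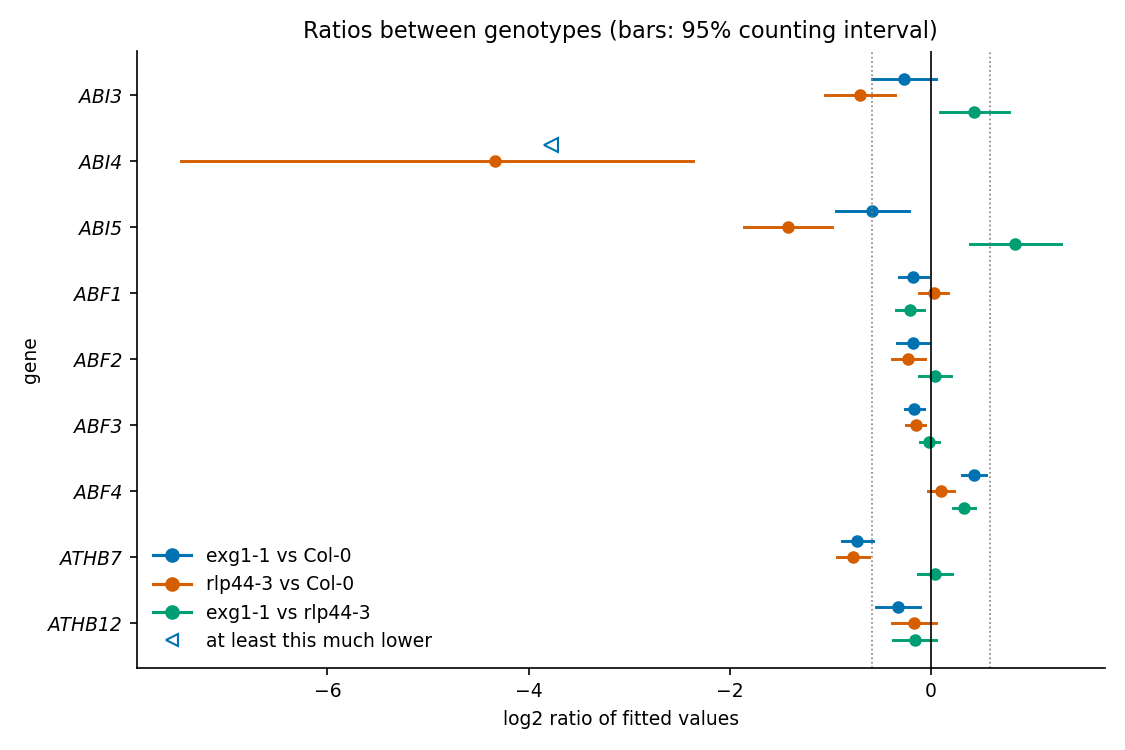
Log2 ratios of fitted values (horizontal axis) for the 9 genes in *exg1-1* against Col-0, *rlp44-3* against Col-0 and *exg1-1* against *rlp44-3*, with bars for the 95% counting interval and dotted lines at 1.5-fold. The open triangle is the value of -3.77 for *ABI4* in *exg1-1* at the floor of 3 reads, where the 95% counting limit was -3.39. The ratios of *ABI5* to Col-0 are -0.58 and -1.42, and those of *ATHB7* are -0.73 and -0.77.

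Counted at 1.5-fold, 2 of the 9 genes were lower in *exg1-1* than in Col-0 (*ABI4* and *ATHB7*) and none was higher. Over the 19454 retained genes, 5.30% were at least 1.5-fold lower in *exg1-1* and 3.01% higher. *ABI5* stood just outside this limit at 1.49-fold lower, and under upper quartile scaling or library totals it passed, which made 3 members. In *rlp44-3*, 4 of the 9 were at least 1.5-fold lower (*ABI3*, *ABI4*, *ABI5* and *ATHB7*) and none was higher, beside 3.15% lower and 2.07% higher over all retained genes. At 2-fold these counts were 1 (*ABI4*) in *exg1-1*, where 1.61% of all retained genes were lower and 0.951% higher, and 2 (*ABI4* and *ABI5*) in *rlp44-3*, where 1.09% were lower and 0.586% higher. The median log2 ratio of the members was -0.27 in *exg1-1* and -0.22 in *rlp44-3*, and that of all retained genes -0.0044 and -0.00031. *ABI4* passed the filter through Col-0 alone and had to be lower in both mutants. Of the other 8 members, 1 was at least 1.5-fold lower in *exg1-1* and 3 in *rlp44-3*, and at 2-fold 0 and 1. Of the 19220 retained genes that did not pass so, 866 and 451 were at least 1.5-fold lower, and 216 and 118 at least 2-fold. The median log2 ratios of the 8 members were -0.22 and -0.19. Both comparisons use the same Col-0 libraries, and the members were chosen with these ratios known, so nothing is read from the excess over the background.

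**Figure D4:**
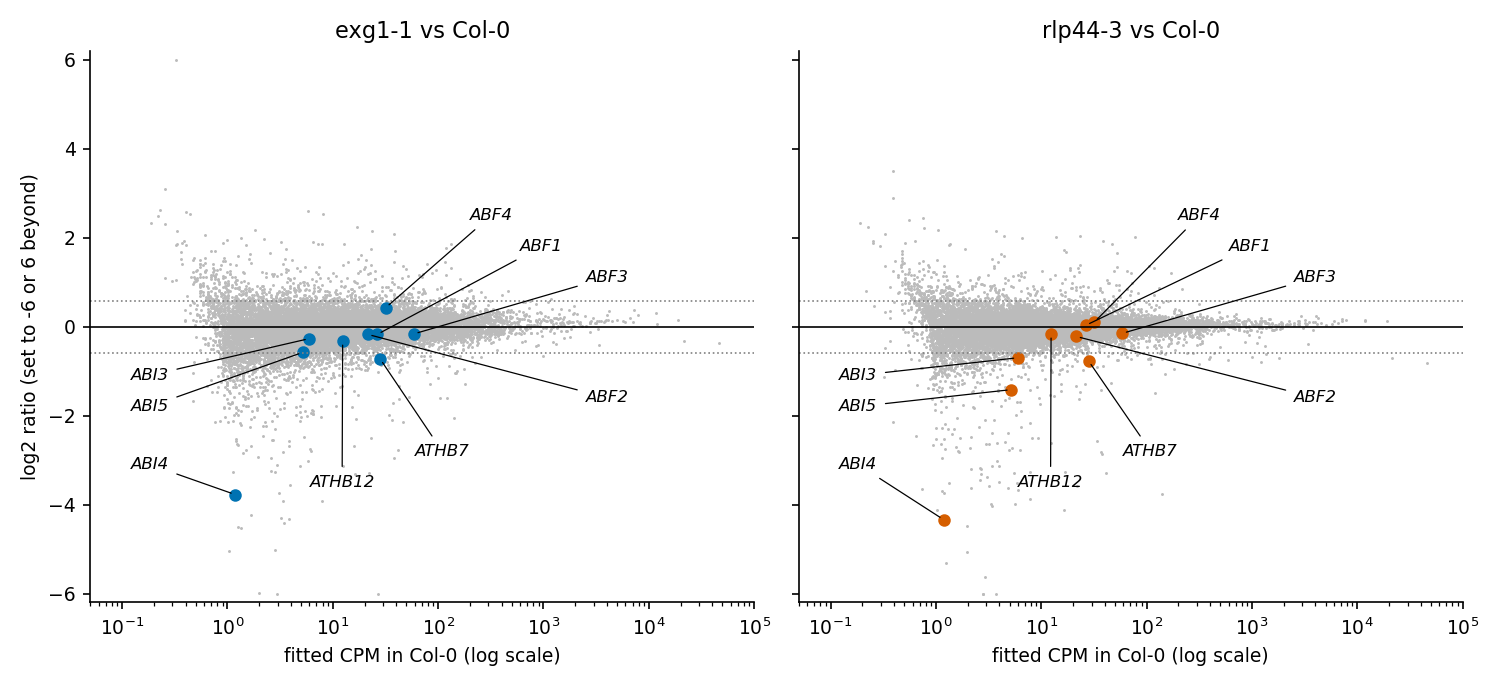
Log2 ratio to Col-0 (vertical axis) against fitted CPM in Col-0 (log axis) for the 19454 retained genes in grey, with the 9 members in colour and dotted lines at 1.5-fold. *ABI4*, near the low end of the levels, lies at -3.77 in *exg1-1*, set by the floor of 3 reads, and at -4.34 in *rlp44-3*. *ABF1*, *ABF2* and *ABF3* lie among the bulk of genes. *ABF4* lies toward the upper side in *exg1-1*, where 5.49% of retained genes have a higher ratio.

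In the direct comparison of the mutants, *ABI5*, *ABI3*, *ABF4* and *ABF1* had intervals without 0. *ABI5* was higher in *exg1-1* than in *rlp44-3*, with a log2 ratio of 0.84 (0.39 to 1.29), and it was the only one of 8 members with a ratio that was at least 1.5-fold apart, where 2.99% of all genes with a ratio were that much higher in *exg1-1* and 3.96% that much lower. At 2-fold no member was apart between the mutants, beside 0.946% of genes higher and 1.06% lower in *exg1-1*. *ABF4* had a ratio of 0.33 (0.22 to 0.44), *ABI3* 0.43 (0.09 to 0.77) and *ABF1* -0.20 (-0.34 to -0.07). For *ATHB7* the ratio was 0.05 (-0.12 to 0.21) and for *ABF3* -0.01 (-0.11 to 0.08). *ABF2* and *ATHB12* had ratios of 0.05 and -0.16, with intervals that included 0.

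The other genes of the pathway were described from 10 lists of 98 genes, of which 92 had values and 76 passed the filter. At 1.5-fold, 19 of the 76 were apart in *exg1-1*, 6 of them higher and 13 lower, and in *rlp44-3* 17 were apart, 3 higher and 14 lower. Over all retained genes 3.01% were higher and 5.30% lower in *exg1-1*, and 2.07% and 3.15% in *rlp44-3*. *HAI2*, *EM1*, *RD20* and *GOLS2* passed the filter through Col-0 alone, and without them 9 of 72 were lower in *exg1-1* and 10 in *rlp44-3*. Of all 19220 retained genes that did not pass so, 866 and 451 were that much lower. For all 76 pathway genes, log2 ratios to Col-0 had medians of -0.04 (*exg1-1*) and -0.12 (*rlp44-3*). For the 72 these were -0.01 and -0.07.

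Upstream of the factors, all 9 retained receptor genes were above Col-0 in *exg1-1* and 8 of 9 in *rlp44-3*, with median ratios of 0.30 and 0.28. Over all retained genes 9568 of 19454 and 9706 of 19453 were above Col-0. The intervals of *PYL2*, *PYL7* and *PYL9* included 0 in both mutants, and that of *PYL1* in *rlp44-3*. At 1.5-fold 3 were higher in *exg1-1* and 1 in *rlp44-3*, beside 3.01% and 2.07% of all retained genes. *PYL5* was at 16.8 fitted CPM in Col-0 against 32.9 in *exg1-1* and 28.6 in *rlp44-3*. *PYL4* was at 75.4, 127 and 107 fitted CPM, and *PYL6* had log2 ratios of 0.86 and 0.58 from a Col-0 level of 6.70 fitted CPM. Of 7 phosphatase genes, which encode the negative regulators of the pathway, 2 were at least 1.5-fold lower in each mutant, beside 5.30% and 3.15% of all retained genes, and 1 of these, *HAI2*, had to be lower as it passed the filter through Col-0 alone. *HAI2* had log2 ratios of -2.95 in *exg1-1* and -3.45 in *rlp44-3* from a Col-0 level of 2.60 fitted CPM, and *HAI1* of -2.03 and -1.60 from 4.98 fitted CPM, while *ABI2* had -0.21 and -0.56. Among the 10 SnRK2 kinase genes *SNRK2.8* alone passed 1.5-fold, at 13.6 fitted CPM in Col-0 against 21.8 in *exg1-1* and 11.7 in *rlp44-3*. Of all retained genes, 3.01% were at least 1.5-fold higher in *exg1-1* and 5.30% lower. *SNRK2.9* had ratios of 0.41 and 0.17 and *SNRK2.7* of -0.40 and -0.39.

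Of 6 retained synthesis genes, *NCED3*, which encodes the dioxygenase of the rate-limiting step, was the one beyond 1.5-fold in *exg1-1*. Over all retained genes 5.30% were that much lower in *exg1-1* and 3.01% higher. *NCED3* was at 7.10 fitted CPM in Col-0 against 3.25 in *exg1-1* and 5.54 in *rlp44-3*, with log2 ratios of -1.13 (-1.47 to -0.79) and -0.36 (-0.66 to -0.06). *AAO3*, the aldehyde oxidase of the last step, had ratios of 0.26 and -0.28, and *ABA1*, the zeaxanthin epoxidase, of 0.22 and 0.04. The 4 genes of the hydroxylases that break the hormone down did not stand on 1 side of Col-0. *CYP707A4* had a ratio of 0.23 in *exg1-1* and -0.61 in *rlp44-3*, *CYP707A2* 0.54 and 0.08, and *CYP707A3* 0.31 and 0.48. *CYP707A1* was below Col-0 in both mutants, at -0.26 (-0.48 to -0.04) and -0.27 (-0.49 to -0.05). The intervals of *CYP707A3* and *CYP707A4* in *exg1-1* and of *CYP707A2* in *rlp44-3* included 0.

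Among the partners of the members, *AFP1*, which encodes an ABI5-binding protein that promotes its degradation, was at 4.48 fitted CPM in Col-0 and 1.74 in each mutant, a log2 ratio of -1.37 in both. Its relative *AFP4* was at 3.24, 7.31 and 5.70 fitted CPM, with ratios of 1.17 and 0.81, and *AFP3* had ratios of -0.32 and -0.31. The family thus held members on either side of Col-0 in both mutants. The other 5 retained repressor genes were within 1.5-fold. Over all retained genes 3.01% were that much higher and 5.30% lower in *exg1-1*, and 2.07% and 3.15% in *rlp44-3*. Of 3 retained B3 relatives, *VAL3* had a ratio of 0.14 in *exg1-1* and 0.77 in *rlp44-3*, and *VAL1* of 0.17 and -0.14. *FUS3* and *LEC2*, seed factors that act with ABI3, had no more than about 4 reads in any genotype.

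Most relatives of the members lay within 1.5-fold of Col-0, as did most retained genes. Over all retained genes 3.01% were at least 1.5-fold higher and 5.30% lower in *exg1-1*, and 2.07% and 3.15% in *rlp44-3*. Among 6 retained bZIP factors of the same group, *FDP* had a log2 ratio of -0.50 in *exg1-1* and -0.82 in *rlp44-3*, *GBF4* of 0.29 and -0.03, and *AREB3* of 0.15 and 0.23. The group's median was 0.22 and 0.16, on the other side of 0 from that of the members. Of 10 other homeodomain leucine zipper genes of class I, *ATHB52* was the one beyond 1.5-fold, with ratios of 0.66 and 0.24, beside *ATHB23* at -0.47 and 0.10 and *ATHB1* at -0.39 and -0.21. The median of these 10 genes was -0.14 and -0.13, on the same side of 0 as that of the members.

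Downstream, 13 target genes were retained, of which *EM1*, *RD20* and *GOLS2* passed the filter through Col-0 alone and so had to be lower in the mutants. Of the other 10, 6 were at least 1.5-fold lower in *exg1-1* and 6 in *rlp44-3*, with median log2 ratios of -0.65 and -0.69. Beside them, 866 and 451 of the 19220 retained genes that did not pass through Col-0 alone were that much lower. Over all retained genes the shares were 5.30% and 3.15%. None of the 10 was at least 1.5-fold higher in either mutant, although *RD26*, a NAC factor gene, stood just below that limit in *exg1-1* (log2 ratio 0.58, 0.39 to 0.78). *RD29B*, an ABRE-driven desiccation gene, was at 36.7 fitted CPM in Col-0 against 8.60 in *exg1-1* and 5.16 in *rlp44-3*, with ratios of -2.09 and -2.83. *EM1*, a late embryogenesis abundant gene and a target of ABI5, had ratios of -4.30 (-5.83 to -3.09) and -3.57 (-4.74 to -2.59), from 88.0 fitted reads over the Col-0 libraries. *GOLS2*, which encodes a galactinol synthase of the drought response, had ratios of -4.53 (-7.61 to -2.59) and -3.51 (-5.45 to -2.03), with about 2 and 4 reads in the mutants.

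**Figure D5:**
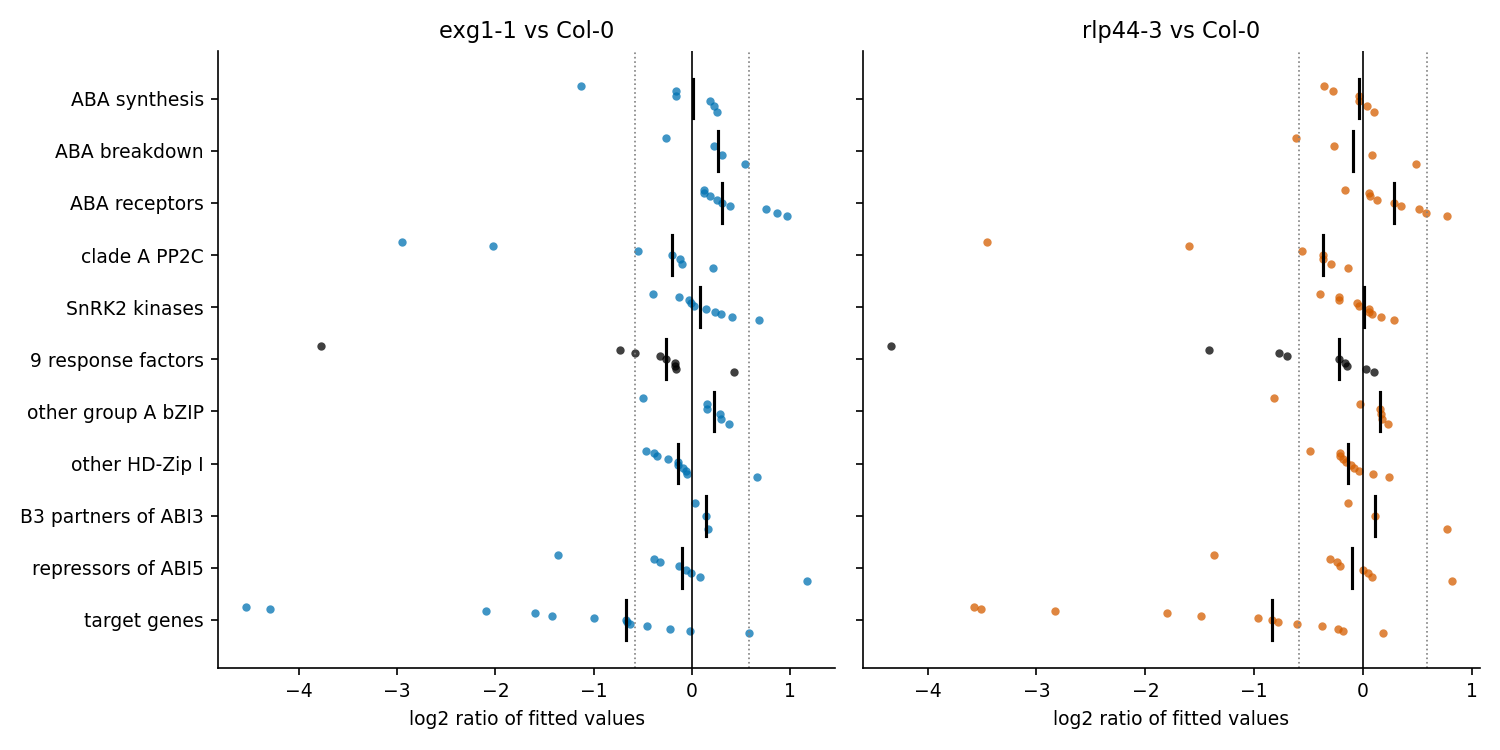
Log2 ratio to Col-0 (horizontal axis) of the retained genes of each abscisic acid list in *exg1-1* (left) and *rlp44-3* (right), with 1 point per gene, a black bar at the list's median and dotted lines at 1.5-fold. The 9 factors are in black. The receptors have medians of 0.30 and 0.28. The medians of the target genes, -0.67 and -0.84, include 3 genes that passed the filter through Col-0 alone.

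The summed markers of seed storage cells were lower in both mutants, as *ABI5* was. *ABI3* was lower too, with an interval that included 0 in *exg1-1*, and *ABI4* had to be lower. The 12 seed storage and oil body markers summed to 32.2 fitted CPM in Col-0 against 7.59 in *exg1-1* and 4.58 in *rlp44-3*. The filter left 7 markers, of which *CRA1*, *CRC*, *SESA3*, *OLEO1* and *ECP63* passed through Col-0 alone, so that they had to be lower in the mutants. The other 2, *OLEO2* and *PER1*, had log2 ratios of -1.47 and -1.15 in *exg1-1* and -3.30 and -1.74 in *rlp44-3*. Without reads were *SESA4* in Col-0, 5 markers in *exg1-1* (*CRC*, *SESA1*, *SESA2*, *SESA4* and *ATS1*) and 3 in *rlp44-3* (*CRB*, *SESA1* and *SESA2*). Of 5 retained markers with a ratio between the mutants, 4 were higher in *exg1-1* and 1 lower, and only *OLEO2* and *PER1* had intervals without 0. The order of the 3 genotypes was the same for the summed markers as for *ABI5* and *ABI3*, although the *ABI3* interval of *exg1-1* against Col-0 included 0. The part of seed transcripts in the values of these factors and of *EM1* was not tested. *ATHB7* and *ABF2* were in that order too, with intervals between the mutants that included 0, and *ABF4* was highest in *exg1-1*.

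The genes most like *ABI5* and *ATHB7* were taken by the distance between their pairs of log2 ratios to Col-0, over 3 genotypes. Of all retained genes, 2 lay within 0.1 of *ABI5* in both ratios and 31 within 0.1 of *ATHB7*. The nearest to *ABI5* among 5255 genes with a Col-0 level within 2-fold of it were *CYS2* (AT2G31980), a cystatin, at a distance of 0.03 with ratios of -0.55 and -1.42, and *BBX31* (AT3G21890), a B-box factor, at 0.25 with ratios of -0.80 and -1.29. For *ATHB7*, the nearest of 7077 were *STR18* (AT5G66170), a sulfurtransferase, at 0.10 with ratios of -0.64 and -0.74, and *CEP2* (AT3G48340), a cysteine endopeptidase, at 0.18 with ratios of -0.86 and -0.64. With 1 fitted value per genotype, such a likeness rests on 2 ratios.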

How the data were processed

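Whole-seedling mRNA was sequenced by the authors in 9 libraries, which were grouped by their labels (3 replicates per genotype), and 3 further columns of the table matched no listed sample and were not used. The authors used fastp for trimming, HISAT2 for mapping to TAIR10, HTSeq for counting and DESeq2 for comparing genotypes. The sources used here do not give versions or the strand setting. The deposited values are a signal on the scale of reads, fitted per gene and genotype and multiplied by a library factor. Of 33341 rows, 7624 held no values.

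The 3 columns of a genotype were summed. Genes were retained where in 1 genotype every library reached 0.908 CPM, which is 10 reads at the median library size, and the total was at least 15. TMM factors trimmed 30% of log ratios and 5% of levels. Scaling was tested on simulated data. Count tests had been planned only for the case of true counts. Sums under 0.75 stood for no reads and were set to 3, and no ratio was taken where both genotypes were at or under 3. This last step was set after the data were seen. Intervals are exact 95% Poisson and Clopper-Pearson intervals of the sums.

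The members and the gene lists were chosen with earlier results of these data known. Named genes are the 9 members, *EXG1*, *RLP44*, up to 3 retained genes per list with the largest log2 ratio to Col-0 in either mutant and an interval without 0, and the 2 genes nearest to *ABI5* and to *ATHB7*. *FUS3*, *LEC2*, *RD20*, *RD26*, *PYL1*, *PYL2*, *PYL7*, *PYL9*, *CYP707A1*, single seed markers and the genes overlapping members were named after their values were seen. Gene starts, exon lengths and sequences came from RefSeq TAIR10.1. The files give identifiers without coordinates, and none are printed. Alternatives were RLE, upper quartile and total scaling, no filter, omission of organelle genes, a minimum of 10 reads per library, sums under 3 set to 3, and ratios of the values as deposited (added after the data were seen). Python 3.11.15, numpy 2.4.6, pandas 2.3.3, scipy 1.17.1 and matplotlib 3.10.9 were used.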

Additional observations from a re-analysis of the deposited data

How the results depend on the processing

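No paired analysis was possible because the 3 columns of a genotype are multiples of one another, and for the same reason the omission of each replicate in turn was not run. In the alternatives that were run, no member's ratio to Col-0 changed sign. Between the mutants, *ABF2*, *ABF3* and *ATHB7* each changed sign under 1 setting, with values near 0. Under upper quartile scaling and library totals 3 members, *ABI5* now among them, were at least 1.5-fold apart in *exg1-1* against Col-0, in place of 2. With at least 10 reads in every library, *ABI4* was left out and 1 member remained in that comparison. With values as deposited, *ABI4* added a second member in *exg1-1* against *rlp44-3*, making 2 in place of 1, at levels where neither mutant exceeded 3 reads. Without a filter, the pathway genes apart were 26 in place of 17 for *rlp44-3* against Col-0 and 16 in place of 7 for *exg1-1* against *rlp44-3*, with 92 genes counted in place of 76. Of 39 counts under the alternatives, 25 equalled the main count, 10 differed by no more than 1.5 times and 4 by more. Depth limits *ABI4* and the low receptors, phosphatases and seed markers, and the spread between replicates is not in these values.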
